A study of Mus musculus with 2 samples.

Results

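Kit and Cd34 encode surface proteins by which blood stem and progenitor cells are recognised, and the binding of Scl around both genes was examined in HPC-7 cells. The members are these 2 genes, chosen by name, out of 27018 genes with a promoter in the RefSeq table used here. For Kit the reads between 75.75 and 76.08 Mb of chromosome 5 in build mm9 were taken, a span of 330 kb, and for Cd34 those between 196.72 and 196.82 Mb of chromosome 1, a span of 100 kb. HPC-7 is an early haematopoietic mouse line derived from embryonic stem cells and kept in medium with stem cell factor. Its chromatin, fixed in 0.4% formaldehyde and sheared to 200 to 500 bp, was immunoprecipitated once with an antiserum against Scl, and the DNA was sequenced in 3 portions. The portions of lanes 7 and 8, of which lane 8 received more DNA, form sample 1, and the portion read at another site is sample 2. There is 1 group, with no second genotype or treatment, and no control library was used here. Both samples share 1 immunoprecipitation, so every interval and p-value covers counting error only.

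Kit, also called CD117, is the receptor tyrosine kinase for stem cell factor. It is carried by blood stem cells, progenitors and mast cells, and most blood lineages lose it as they mature. Cd34 is a sialomucin on progenitors and endothelial cells and is widely used to enrich progenitors. Scl, or Tal1, belongs to the basic helix-loop-helix factors. It binds E-boxes with a class I partner and joins a complex with Lmo2, Ldb1 and a GATA factor, so it can also sit at GATA motifs. In erythroid cells an enhancer bound by GATA factors has been described far upstream of Kit. Whether that element is the window described below was not examined.

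Distinct reads, those that differ in start or strand, were moved by 0.5 fragment lengths towards the fragment's centre, and counted in windows of 200 bp. Fold is the count divided by the larger of the genome average and the average of the surrounding 10 kb. Sample 1 held 5632119 distinct reads and sample 2 held 4150610, which gave 0.593 and 0.437 reads in an average window. Reads were 45 bases long in sample 1, and 86.1% of those of sample 2 were 32 bases long. How far this changes the bases that each sample can reach was not tested. A window was called when its one-sided exact Poisson p, adjusted by Benjamini-Hochberg over all windows of the genome, was under 0.01, its fold was at least 5, and each strand held at least 20% of its reads. At the genome average a call needed 8 reads in sample 1 and 7 in sample 2. Sample 2 is in build mm8, and its reads were placed by the offset at which read ends of both samples coincided. That offset was 114328 bp at Kit, with 118 coincident ends against 14 at the next best, and 125470 bp at Cd34, with 116 against 14. Most of these ends lay in the 300 kb flanks. Inside the spans 43 and 8 ends coincided, so the placement within Cd34 rests mainly on its flanks. In the block that holds the distal Kit window described below, 9 ends coincided at the offset and 5 at the best other one. In the Kit block furthest upstream another offset did better, with 6 ends against 3. The block of the Kit promoter had 5 ends at the offset and 5 at the best other one. In the 3 blocks of Cd34 another offset did at least as well.

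The only region called at either gene, in sample 2 alone, lay far upstream of Kit, at -114.3 kb from its start. Its sequence, built from sample 2 reads that match mm8 without error, is shown because it carries 2 GATA motifs. The reads covered 154 of 201 bp around the window's centre. The first stretch below is chr5:75742327-75742361 and the second is chr5:75742363-75742422, both in mm8 on the plus strand, with capitals for GATA motifs.
Kit distal stretch with the upstream GATA motif: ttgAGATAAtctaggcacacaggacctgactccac
Kit distal stretch with the downstream GATA motif: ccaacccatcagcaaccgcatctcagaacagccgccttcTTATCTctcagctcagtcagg
The GATA motif searched was AGATAA, its form TGATAA, and both with a final G in place of the final A, on either strand. It began at -21 bp and at 51 bp from the centre of the called window, first on the plus strand and then on the minus strand. The motif was present in 4.76% of RefSeq promoters cut to the length of the first stretch and in 8.45% of those cut to the length of the second. These stretches were shown because they hold the motif, and no share was computed for all 154 bases searched. The share rose with length, to 11.8% at 86 bases and 27.1% at 250. A match somewhere in the searched bases is therefore more common than the shares of single stretches. Promoters were the only background, and sequence away from promoters was not tested. The covered bases also held 1 RUNX motif (TGCGGT or its form TGTGGT, either strand), on the minus strand at 26 bp. It was present in 4.56% of promoters cut to 60 bases, the length of its stretch and not of all bases searched. The covered bases held 0 E-boxes of the form CANNTG. How many promoters lack an E-box over as many bases was not computed, so this absence has no background. Bases that no read covered were not searched.

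In sample 2 this distal window held 9 distinct reads at mm8 chr5:75742251-75742450, where the surrounding 10 kb averaged 0.72 (12.5-fold, exact Poisson 95% interval 5.72 to 23.7, adjusted p = 0.00172 by the exact test). It was the only region called at either gene in either sample. Over the genome 0.00431% of windows were called in sample 2 and 0.00729% in sample 1. In sample 1 the closest window, mm9 chr5:75856601-75856800, held 6 reads, of which 1 came from lane 7 and 5 from lane 8. That was 7.69-fold (2.82 to 16.7) with an adjusted p of 0.338 by the exact Poisson test, so it was not called. The share of sample 1 among the reads of both samples there was 40% (exact binomial 95% interval 16.3 to 67.7), against 57.6% of all distinct reads, a difference that did not pass (exact binomial p = 0.196, adjusted p = 0.961 over 12 windows).

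The call rested on the placement of the windows. With the window grid started at 10 different bases, 5 bp apart, the region was called with 3 of them. The adjusted p ranged from 0.00171 to 0.0161 over these starts, with 8 or 9 reads (exact Poisson test). The region was also called in 400 bp windows with 12 reads at 8.33-fold (adjusted p = 0.000697, exact Poisson test). The 400 bp window centred on the distal window did not pass, with 9 reads at 6.25-fold (adjusted p = 0.134, exact Poisson test). When the reads of both samples were pooled, with common ends counted once, the sample 1 window held 13 reads at 8.67-fold. Its exact Poisson p was 7.80e-09, and multiplied by the number of windows in the genome it was 0.412. That product is a stricter criterion than the Benjamini-Hochberg adjustment behind the calls, which was not run on pooled reads. The largest exact Poisson p among called windows was 8.64e-07 in sample 1 and 5.54e-07 in sample 2. These values belong to single samples and set no limit for pooled reads, which include the sample 2 reads behind the call. Among the 779 regions called in sample 2, 73.2% had at least as many reads as this one, and the median region had 11 reads at 16-fold.

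Most reads at the distal window came from the minus strand. In sample 2 the window held 2 plus and 7 minus reads, and in sample 1 it held 1 plus and 5 minus reads. Within 300 bp of the window's centre in sample 1, the median plus end and the median minus end lay 115 bp apart in sample 2 and 48.5 bp apart in sample 1, the latter with a single plus end. The fragment lengths with the most strand pairs over the genome were 123 and 115 bp. Inside the window 1 read end was common to both samples.

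**Figure D1:**
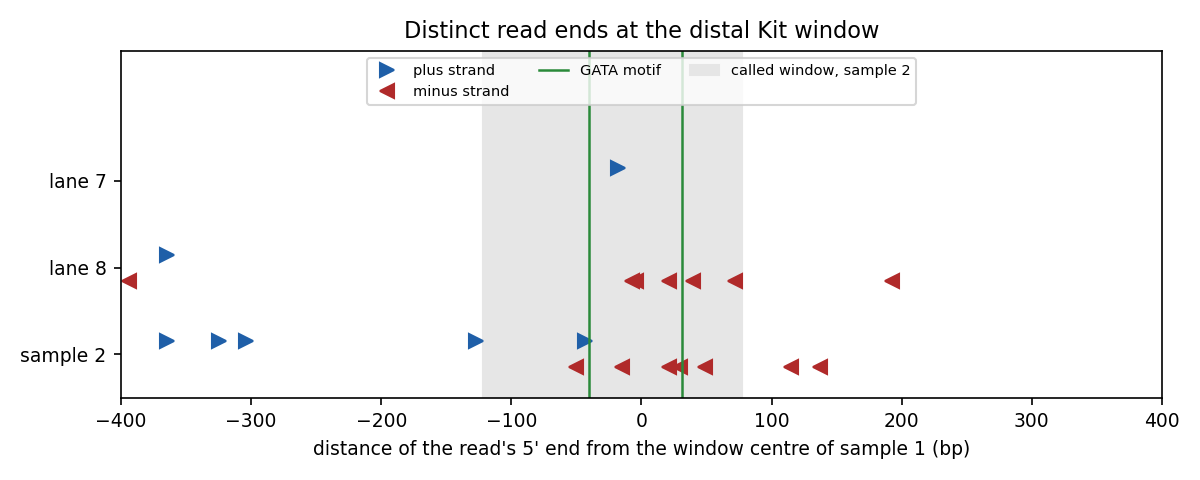
Distance of each distinct 5' read end (bp) from the centre of the sample 1 window, for lane 7, lane 8 and sample 2; right-pointing marks are plus-strand reads, left-pointing marks are minus-strand reads, green lines are GATA motifs and the grey band is the 200 bp window called in sample 2. Within 200 bp after the centre sample 1 had 4 minus ends and sample 2 had 5, and neither had a plus end.

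In sample 2 the distal window had the most reads of the Kit locus, and in sample 1 it shared that count with other windows. No other window of the locus reached 9 reads in sample 2, whereas in sample 1 there were 4 separate places with 6 reads, the distal window being 1 of them. Over the genome 0.124% of windows held at least 6 reads in sample 1, and 0.00965% held at least 9 in sample 2. In both samples the 10 kb bin with the most reads, out of 33, was the one centred at -116 kb from the start of Kit. It held 47 reads in sample 1, where the bins had a median of 32, and 43 in sample 2, where the median was 24. The lead was narrow in sample 1, where the bins centred at -96 and 4 kb held 46 reads each. In sample 2 the next bin, at 104 kb, held 32. The bin at -116 kb includes the distal window itself, so it is not separate support.

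Further windows with many reads lay in the same stretch upstream of Kit. At -125.7 kb sample 1 had 4 reads, 2 from each lane, and sample 2 had 6, which was 5.88-fold and 10-fold (adjusted p = 1 and 0.281, exact Poisson test). Its sample 2 reads covered 69 of 201 bp and held 1 E-box, CACCTG, at -85 bp from the centre, and 1 ETS motif at -1 bp (AGGAAG, searched also with a leading C or a final A, on either strand). An E-box was present in 11.3% of promoters cut to the 30 bases of the stretch that held it. No share was computed for all 69 bases searched, where a match is more common. At -119.8 kb each sample had 4 reads, 5.41-fold and 6.45-fold, but 2 of the read ends were common to both samples. Neither window was called. Side by side windows of at least 5-fold, with no test, numbered 32 of 1650 in sample 1 (1.94%) and 29 in sample 2 (1.76%). Over the genome the shares were 1.23% and 0.898%, taken over all windows, including those that reads cannot reach, which lowers them. Of the Kit windows of at least 5-fold, 3 were shared, 9.38% of those of sample 1 and 10.3% of those of sample 2. All 3 lay upstream of the gene, at -140.5, -125.7 and -114.3 kb. How often such windows are shared over the genome was not computed, so the shared percentages have no background. The upstream span held 26 of the 32 in sample 1 and 18 of the 29 in sample 2, and 1100 of the 1650 windows lay there. As a share of the windows of each span, this was 2.36% upstream and 1.23% in the gene body in sample 1, and 1.64% and 2.47% in sample 2, so the samples did not share an order.

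**Figure D2:**
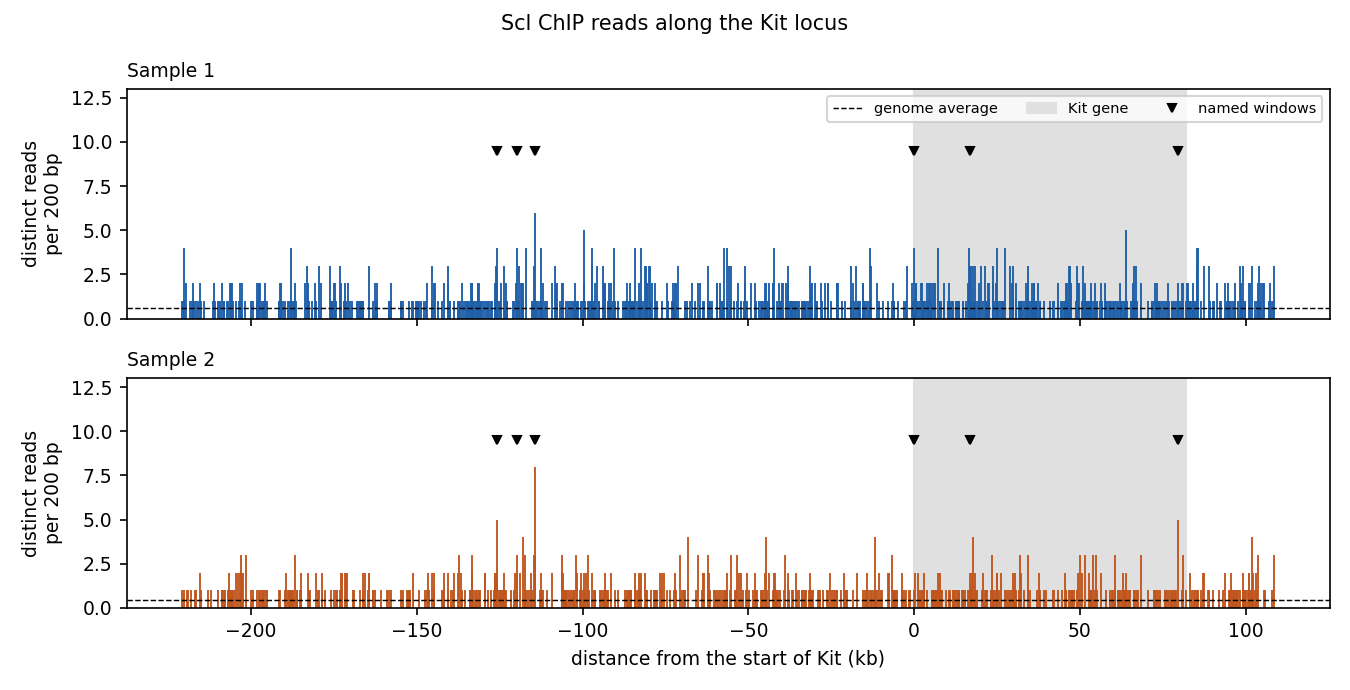
Distinct reads per 200 bp window (vertical axis) against distance from the start of Kit (kb), in sample 1 (top) and sample 2 (bottom). The dashed line is the genome average, the grey band the gene, and triangles mark the 6 named windows; the windows lie side by side, on the sample 1 grid, and the tallest in each panel is the distal one, with 6 reads in sample 1 and 8 in sample 2.

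At the Kit promoter reads were denser than upstream in sample 1 and not in sample 2, and the split between the samples did not pass its test. The start of the gene was placed at mm8 chr5:75856684 by a sample 2 read that matches the RefSeq promoter, which the offset puts at 75971012 in mm9. The 250 bases before the start, from RefSeq (GRCm38.p6), are shown because no E-box or GATA motif was found in them, so that they hold no capitals.
Kit promoter: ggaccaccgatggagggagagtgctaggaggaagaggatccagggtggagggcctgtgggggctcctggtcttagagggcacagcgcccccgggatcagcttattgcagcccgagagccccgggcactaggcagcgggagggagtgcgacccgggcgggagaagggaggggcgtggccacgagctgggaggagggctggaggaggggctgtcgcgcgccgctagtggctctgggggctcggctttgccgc
Of all RefSeq promoters, 66.0% held an E-box (CANNTG) and 27.1% held a GATA motif in the same 250 bases. The Kit stretch had 70.8% G and C and 1 ETS motif. No match says only that these letters are not in this stretch. A single sample 2 read covered 32 bases from the start onwards and held 1 E-box, CACTTG, which 12.2% of promoters cut to that length also held.

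Within 1 kb each side of the start of Kit, sample 1 had 13 reads, of which lane 7 gave 3 and lane 8 gave 10, and sample 2 had 3. Per kb this was 6.5 (3.46 to 11.1) in sample 1, or 2.19 times the genome average, and 1.5 (0.309 to 4.38) in sample 2, or 0.686 times the genome average. The sample 1 interval lay above the genome average (1.17 to 3.75 times) and that of sample 2 included it (0.142 to 2.01 times). In sample 1 the promoter exceeded the upstream span 2.22-fold (exact binomial 95% interval 1.17 to 3.82, adjusted p = 0.0412 over 12 comparisons). In sample 2 the ratio was 0.642 (0.132 to 1.89, adjusted p = 0.697, exact binomial test). Without mismatched reads, and with 500 bp each side, the sample 1 excess lost its call (adjusted p = 0.116 and 0.0923, exact binomial test). The split of the promoter reads between the samples, examined after these values had been seen, did not pass a test against that of all reads (81.2% from sample 1, 54.4 to 96.0, exact binomial p = 0.0748, adjusted p = 0.598 over 8 spans). The promoter window with the most reads, centred 89 bp after the start, held 4 reads in sample 1, all from lane 8, and 1 in sample 2 (5.56-fold and 2.29-fold).

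The Kit gene body, which runs about 82 kb from the start, had a read density close to its surroundings. Beyond the promoter it held 3.48 reads per kb in sample 1 (3.09 to 3.91) and 2.41 in sample 2 (2.08 to 2.77). The upstream span held 2.93 (2.71 to 3.16) and 2.34 (2.14 to 2.55). The upstream density was 0.841 times that of the gene body in sample 1 (0.730 to 0.970, adjusted p = 0.0480, exact binomial test), and 0.970 times in sample 2 (0.821 to 1.15, adjusted p = 0.735). Without mismatched reads the sample 1 difference lost its call at 0.899 (adjusted p = 0.287, exact binomial test). Exon positions of either build were not used here, so windows of the gene body are not divided into exons and introns.

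Inside Kit, 2 windows were named and neither was called. At 16.8 kb after the start sample 1 held 6 reads, 1 from lane 7 and 5 from lane 8, and sample 2 held 2, which was 6.98-fold and 3.23-fold (adjusted p = 0.385 and 1, exact Poisson test). At 79.5 kb after the start, near the end of the gene, sample 1 held 2 reads and sample 2 held 5, which was 2.94-fold and 11.4-fold (adjusted p = 1 and 0.362, exact Poisson test). The first had more reads in sample 1 and the second in sample 2, but in 0 of the 12 named windows of both genes did the split pass a test against that of all reads (lowest exact binomial p = 0.143, lowest adjusted p = 0.961). Side by side windows of at least 5-fold numbered 5 of 405 in the gene body in sample 1 (1.23%, as over the genome) and 10 in sample 2 (2.47%, against 0.898% over the genome), and 0 were shared. These shares were not tested, and the genome shares are lowered by windows that reads cannot reach. How often windows are shared over the genome was not computed.

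**Figure D3:**
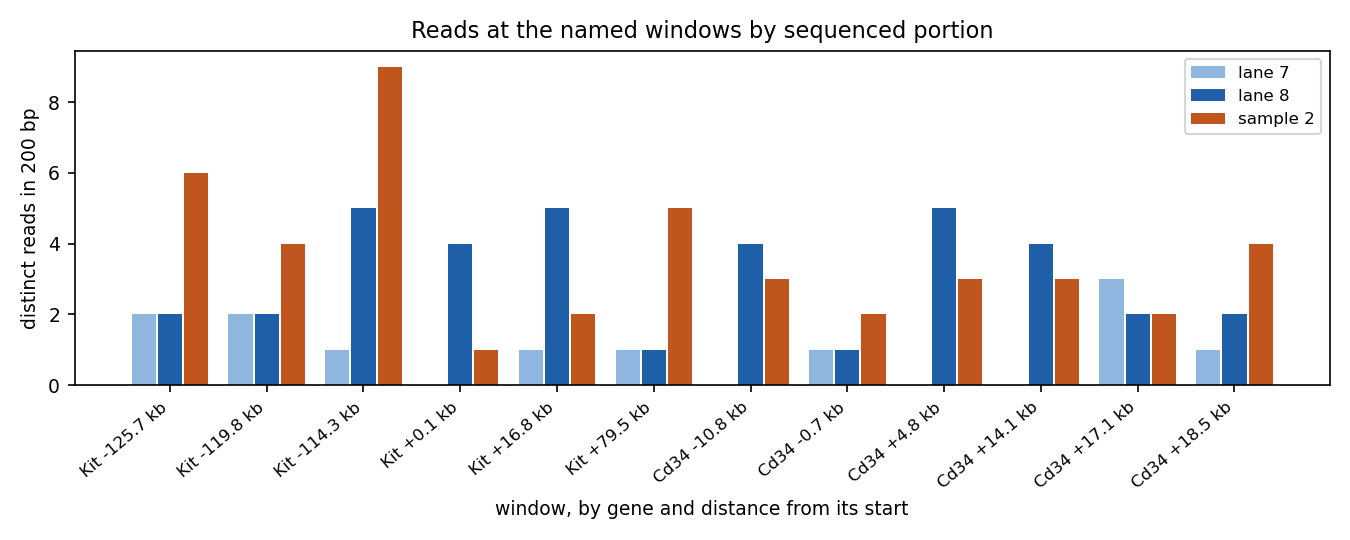
Distinct reads (vertical axis) in each of the 12 named 200 bp windows, labelled by gene and distance from its start, with bars for lane 7, lane 8 and sample 2. The distal Kit window has the most reads of any window in sample 2, and no Cd34 window has more than 5 reads in any portion.

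At Cd34 no region was called in either sample. The most reads in any window were 5 in sample 1, found at 4 separate places, and 4 in sample 2, found at 3. Side by side windows of at least 5-fold numbered 10 of 500 in sample 1 (2%, against 1.23% over the genome) and 7 in sample 2 (1.40%, against 0.898%), with no test, and 2 were shared, 20% of those of sample 1 and 28.6% of those of sample 2. Both shared windows lay inside the gene, which runs about 22 kb from its start. Here too the genome shares are lowered by windows that reads cannot reach, and the sharing between samples has no genome background.

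The Cd34 window 4.8 kb after the start was the only Cd34 window named whose readable sequence held a GATA motif, and it is shown for that reason. The stretch is chr1:196644416-196644501 in mm8, plus strand, with the motif in capitals.
Cd34 stretch inside the gene: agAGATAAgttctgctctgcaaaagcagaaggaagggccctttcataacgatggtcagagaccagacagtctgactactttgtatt
The motif began 17 bp after the centre of the window, and 1 ETS motif, AGGAAG, followed at 44 bp. A GATA motif was present in 11.8% of RefSeq promoters cut to 86 bases, and an ETS motif in 23.9%. Sample 1 held 5 reads in this window, all from lane 8, 2 on the plus and 3 on the minus strand, and sample 2 held 3, all on the minus strand. This was 7.58-fold (2.46 to 17.7) and 6.25-fold (1.29 to 18.3), with adjusted p-values of 0.502 and 1 by the exact Poisson test. No read end was common to both samples. With the samples pooled the window held 8 reads at 7.02-fold, and its exact Poisson p was 2.59e-05. That is above the largest p called in either sample, but no limit was computed for pooled reads.

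Of the other Cd34 windows inside the gene, the one at 14.1 kb held 4 and 3 reads, with 1 end common to both samples, the one at 17.1 kb held 5 and 2, and the one at 18.5 kb held 3 and 4. Their folds were 6.75 and 6.87, 8.43 and 3.57, and 5 and 5.88, in samples 1 and 2. The lowest adjusted p among them was 0.385 by the exact Poisson test. A window at -10.8 kb held 4 and 3 reads (6.75-fold and 6.87-fold). At such counts an enrichment below the level needed for a call was not detectable, and these windows cannot be ranked.

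**Figure D4:**
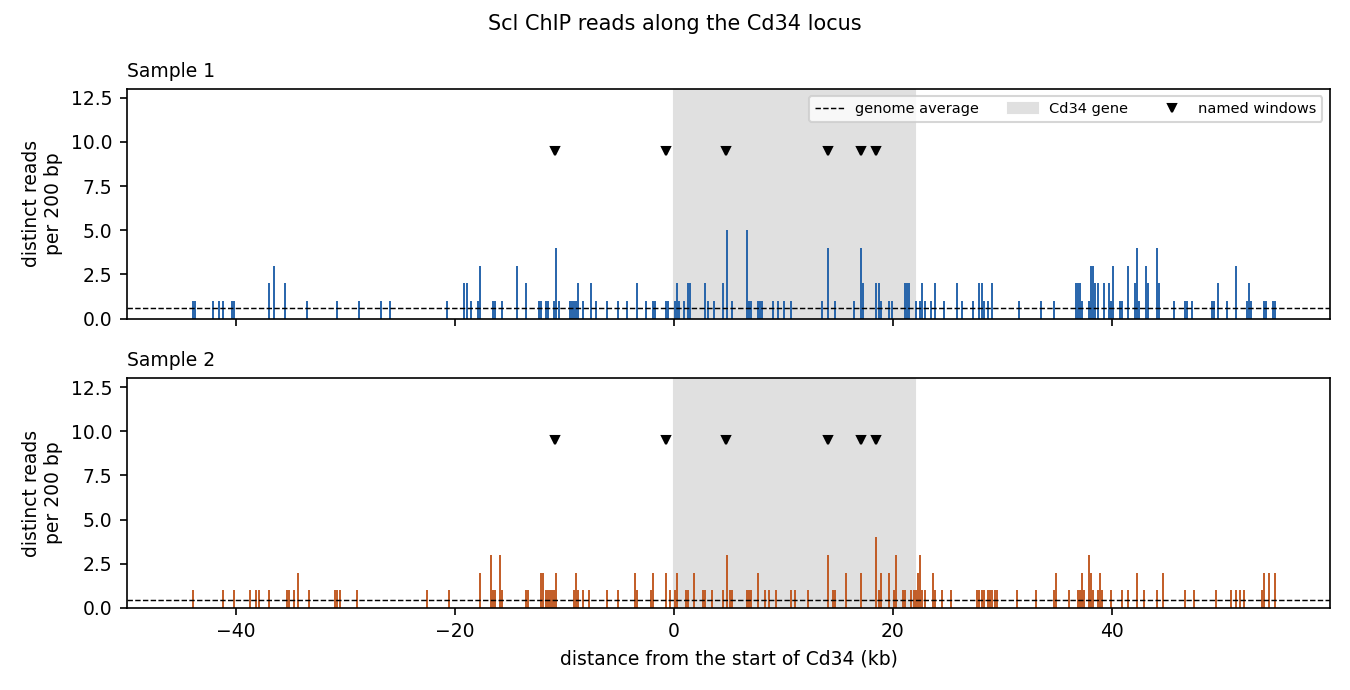
Distinct reads per 200 bp window (vertical axis) against distance from the start of Cd34 in kb, in sample 1 (top) and sample 2 (bottom), with the genome average as a dashed line, the gene in grey and triangles at the 6 named windows. The upstream span has few reads in both samples, 65 and 57 in all, and no window exceeds 5 reads.

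The start of Cd34 was placed at mm8 chr1:196639545 by 2 sample 2 reads that match its RefSeq promoter, and the offset puts it at 196765015 in mm9. The 250 bases before the start, from RefSeq (GRCm38.p6), are shown with the 1 GATA motif in capitals.
Cd34 promoter: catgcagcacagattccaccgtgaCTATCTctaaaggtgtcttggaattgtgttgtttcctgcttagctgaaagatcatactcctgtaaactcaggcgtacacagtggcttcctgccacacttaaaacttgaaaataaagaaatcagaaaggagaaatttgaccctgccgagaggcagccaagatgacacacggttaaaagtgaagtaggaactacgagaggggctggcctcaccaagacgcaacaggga
The motif, on the minus strand, began at -226 bp from the start, and 2 ETS motifs at -195 and -142 bp, with 0 E-boxes. An ETS motif was present in 57.0% of promoters in the same 250 bases. Within 1 kb each side of the start sample 1 held 7 reads, 2 from lane 7 and 5 from lane 8, and sample 2 held 6. Per kb this was 3.5 (1.41 to 7.21) and 3 (1.1 to 6.53), or 1.18 and 1.37 times the genome average. The best promoter window, at -664 bp, held 2 reads in each sample.

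The 44 kb upstream of Cd34 had fewer reads per kb than the gene itself. It held 65 reads in sample 1 and 57 in sample 2, or 0.498 (0.385 to 0.635) and 0.593 (0.449 to 0.768) times the genome average. The gene body held 56 and 50 reads, or 0.90 and 1.09 times that average. The upstream density was 0.553 times that of the gene body in sample 1 (0.381 to 0.806) and 0.544 times in sample 2 (0.365 to 0.811), with adjusted p = 0.0111 in each by the exact binomial test. The 10 kb bin centred at -30 kb was the lowest of 10 in both samples, with 5 and 8 reads. How much of the upstream span reads of this length can reach was not tested. The promoter was 2.37 times the upstream density in sample 1 and 2.31 times in sample 2, which did not pass (adjusted p = 0.0739 and 0.0957, exact binomial test).

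**Figure D5:**
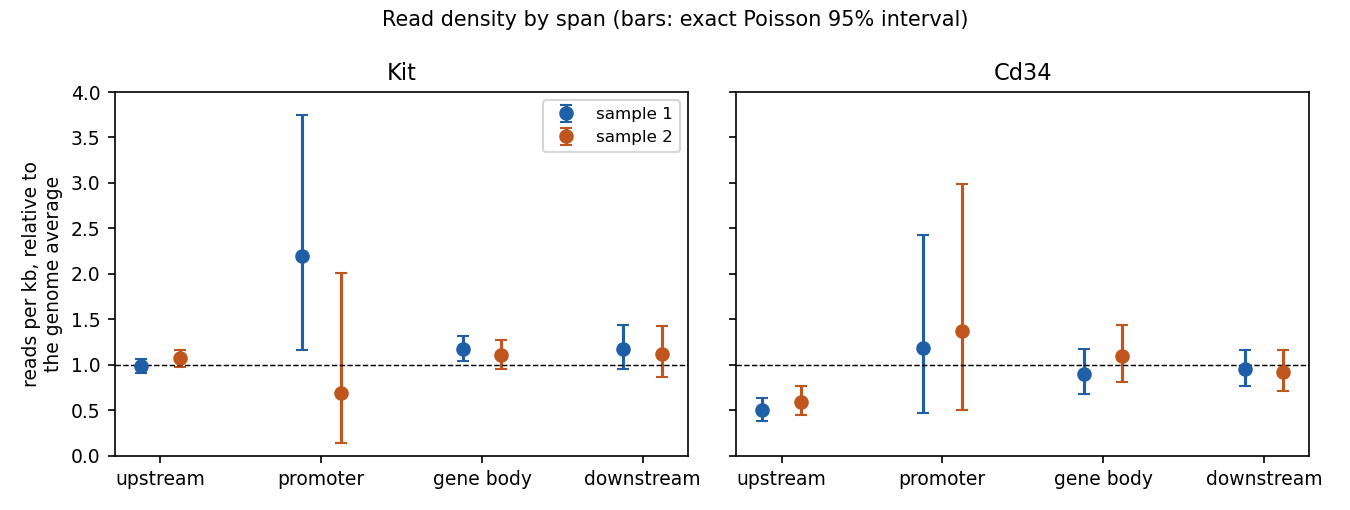
Reads per kb relative to the genome average (vertical axis) in the upstream span, the promoter (1 kb each side of the start), the gene body and the downstream span of Kit (left) and Cd34 (right), for both samples, with exact Poisson 95% intervals as bars. The Kit promoter is at 2.19 times the average in sample 1 and 0.686 times in sample 2, and the upstream span of Cd34 is at 0.498 and 0.593 times the average.

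As whole loci, Kit held 1033 reads in sample 1 and 778 in sample 2, and Cd34 held 221 and 179. Kit was at 1.06 (0.993 to 1.12) and 1.08 (1.01 to 1.16) times the genome average and had more reads than 75.5% and 78.7% of stretches of 330 kb on the autosomes. Cd34 was at 0.746 (0.651 to 0.851) and 0.819 (0.704 to 0.949) times the average and had more reads than 55.5% and 60.2% of stretches of 100 kb. The median stretch held 668 and 509 reads at the first length and 199 and 151 at the second. The genome average is taken over an effective length, while these stretches include bases that reads cannot reach. The split between the samples passed a test against that of all reads at neither locus (57.0% and 55.2% from sample 1, adjusted p = 0.652 for both, exact binomial test).

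Since sample 2 reads carry their sequence, they were also matched, without mismatch, to the RefSeq promoter listed first for each gene. Each was 300 bp, from 250 before to 50 after the start, and other promoters of a gene were not searched. The Kit promoter held 1 distinct read and the Cd34 promoter held 2. At least 1 read was found on 34.7% of the promoters and at least 2 on 10.2%. Of 28 progenitor surface genes listed, 19 had a promoter in the table. At least 1 read lay on 7 of these and at least 2 on 3, namely Cd34, Kdr, a receptor for vascular endothelial growth factor, and Itga2b, the integrin subunit of megakaryocytes known as CD41. None held 3, a number reached by 3.03% of all promoters. The list's median was 0 reads, as over all promoters, and its share with at least 1 read, 36.8%, was near that of all promoters. The cytokine receptor genes Flt3, Epor, Csf3r and Il3ra had 0 reads, which allows for up to 3 by the one-sided rule of 3 counts, for counting error only.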

How the data were processed

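Reads of 1 Scl immunoprecipitation from HPC-7 cells were used. Per the labels, Solexa alignment software placed the reads of sample 1, and Eland those of sample 2. The text deposited beside them names mm9 for the former and mm8 for the latter. Software versions: not given in the sources used here. Per read of sample 1, the deposited score was taken as 45 minus the number of mismatches. Of 5938819 and 4296527 deposited reads, 766 and 566 outside chromosomes 1 to 19, X and Y were left out. The fragment length was that with the most strand pairs after a 15 bp running mean. Windows were 200 bp in steps of 50 bp from base 1 of each chromosome, on an effective genome of 1.9e9 bp, and calls within 200 bp were merged.

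Named windows were the called region, the best promoter window, and those with the most reads over both samples, at least 1 kb apart, to 6 per gene; of these, the motif search used stretches of at least 12 bp. The members and lists were chosen with earlier results of these data known. No genome of either build was used, so intron and exon windows were not compared. Intervals are exact at 95%. Python 3.11.15, numpy 2.4.6, scipy 1.17.1 and matplotlib 3.10.9 were used.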

Additional observations from a re-analysis of the deposited data

How the results depend on the processing

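The region upstream of Kit in sample 2 was called under 7 other planned settings. These were a 50 kb background, all reads, no mismatches, 400 bp windows, fold of 3, adjusted p under 0.05 and no strand rule. It was also called with a fragment length 20 bp longer, a setting that was not planned. A fold of 3, an adjusted p under 0.05 and no strand rule only loosen the criteria, so the call could not be lost under them. The region was lost when reads were not moved (0 regions, 8.11-fold at the same window). Among 9 grid starts added after seeing the data, it was lost with 7 (0 regions each). A 400 bp window centred on it gave 6.25-fold and did not pass, although another 400 bp window there did. Lane 7 and lane 8 alone gave 0 calls at both genes. Leaving out a sample gave between 0 and 1 region at Kit, the 0 without sample 2, and 0 at Cd34. At Kit in sample 1, promoter over upstream was 2.39 with 500 bp each side and 1.90 without mismatched reads, neither passing. Promoter over gene body passed at 2.05 with all reads counted, and upstream over gene body was 0.899 without mismatched reads and did not pass. In sample 2 the promoter ratios turned to 1.29 and 1.25 with 500 bp each side, and upstream over gene body to 1.07 without mismatched reads, none passing. Promoter over upstream at Kit ran from 0.642 without sample 1 to 2.22 without sample 2. At Cd34 in sample 2 promoter over upstream passed at 3.67 without mismatched reads. The causes were not tested. Upstream over gene body at Cd34 passed in both samples under all 4 alternatives. Leaving out called regions, 1 of the 4, could change nothing there, because Cd34 had no called region. Within 50 bp of the centre the distal Kit window held 1 GATA motif. No paired analysis was possible because there is only 1 group. With 9 and 8 reads the distal window fell on either side of the threshold over the grid starts.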

Other observations

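Genes of Kit signalling, the ligand and the proteins that act with or after the receptor, were read in sample 2 with no test. Reads were matched by sequence to the RefSeq promoter listed first for each gene. Of 24 genes listed, 19 had a promoter in the table, and 7 of these held at least 1 distinct read (36.8%, against 34.7% of all promoters). Vav1, a guanine nucleotide exchange factor of blood cells, held 3 reads, a number reached by 3.03% of all promoters. Kitl, the gene of stem cell factor itself, Grb2 and Sos1, which link the receptor to Ras, Fyn, Stat5a and Plcg1 held 1 each. The phosphatase genes Ptpn6 and Ptpn11 and the kinase gene Jak2 held 0.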
